A study of Mus musculus with 7 samples.

Results

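A group of 10 genes that mark retinal bipolar cells or serve their signalling was followed by histone H3 lysine 18 lactylation (H3K18La) in the developing mouse retina: Vsx1, Grm6, Trpm1, Prkca, Pcp2, Gpr179, Cabp5, Isl1, Bhlhe23 and Gng13. All consensus H3K18La peaks that carried the symbol of a member were taken, and the promoter peak nearest the start site was described first. This gave 81 of the 108253 peaks of the series, from 9 of the 10 genes. Prkca held 53 of them, Trpm1 11, Gpr179 5, Grm6 4, Cabp5 3 and Gng13 2, and Vsx1, Isl1 and Bhlhe23 had 1 each. No peak carried the symbol Pcp2. By annotation, 61 of the peaks lay in introns, 8 in promoters, 8 were distal intergenic and 4 were in exons or 3′ untranslated regions.

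H3K18La was profiled by CUT&Tag, which cuts and recovers DNA next to an antibody-bound mark, in dissociated retina of C57Bl/6J mice at P4, P10 and P28 (postnatal days 4, 10 and 28). P4 and P10 had 2 libraries each and P28 had 3, and no group carried a treatment or an allele beside the strain. The study's methods call the replicates biological, and neither they nor the labels say which animals each library came from, so p-values measure the spread between these libraries. P28 replicate 1 is the only library labelled batch 2. The whole retina was used, so fewer cells of a type and less mark per cell cannot be told apart.

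Bipolar cells carry signals from photoreceptors to the inner retina. ON bipolar cells sense glutamate through the receptor mGluR6 (Grm6), whose G protein cascade closes the cation channel TRPM1, and GPR179 holds the regulators of that cascade at the dendritic tip. Bipolar cells are among the last retinal neurons to be born and mature after birth, and protein kinase C alpha (Prkca) is the standard marker of the rod bipolar type.

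Levels are given in RPKM, reads divided by the length of the peak and by the normalised library size. The libraries differed widely in depth, from 199970 reads in peaks at P10 replicate 1 to 8274373 at P28 replicate 2, with 295383 and 358971 at P4. The share of the normalised library size that lay in peaks was 16.3% and 17.6% at P4, 36.1% and 52.1% at P10, and 42.4% to 57.1% at P28. Over all peaks the median log2 change from P4 to P28 was 0.68, and after rescaling each library to its reads in peaks it was -0.29, with 81.8% and 32.3% of the called peaks higher at P28 under the respective scaling. Changes of single peaks are therefore read beside these medians. At P4 the 81 peaks rested on a median of 4 reads over both libraries together, and 53 of them had 3 or fewer reads in each. A peak with so few reads at P4 may be in the consensus list only through a later age. Its low P4 level may then follow from how it entered.

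Sequences are shown for 5 regions described below. The promoters of the 3 cascade genes Grm6, Trpm1 and Gpr179 lie inside their promoter peaks. The others are the Prkca promoter and the middle of the strongest Prkca intronic peak. The promoters are RefSeq windows of build GRCm38.p6, printed 5′ to 3′ on the gene's strand, upstream of the start site and without annotated exon bases. Capitals mark the letters TAATCC (a core bound by OTX and CRX type factors; GGATTA on the other strand) and CANNTG (the E-box, bound by bHLH factors).
Grm6 promoter, chr11:50850435-50850684, plus strand: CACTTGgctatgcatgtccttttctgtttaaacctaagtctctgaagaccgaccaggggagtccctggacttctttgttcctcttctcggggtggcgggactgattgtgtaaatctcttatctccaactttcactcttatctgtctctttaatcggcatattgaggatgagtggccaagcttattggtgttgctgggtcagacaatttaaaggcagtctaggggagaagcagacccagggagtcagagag
Trpm1 promoter, chr7:64153585-64153834, plus strand: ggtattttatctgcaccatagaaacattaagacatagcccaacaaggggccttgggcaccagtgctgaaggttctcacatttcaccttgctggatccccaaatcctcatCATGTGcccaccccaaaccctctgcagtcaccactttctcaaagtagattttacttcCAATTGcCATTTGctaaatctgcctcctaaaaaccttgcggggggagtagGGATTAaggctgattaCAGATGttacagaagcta
Gpr179 promoter, chr11:97352357-97352606, minus strand: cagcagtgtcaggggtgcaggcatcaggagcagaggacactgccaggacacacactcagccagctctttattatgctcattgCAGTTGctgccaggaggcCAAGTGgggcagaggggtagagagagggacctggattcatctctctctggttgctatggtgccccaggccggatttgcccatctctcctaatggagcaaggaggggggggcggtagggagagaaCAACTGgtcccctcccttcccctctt
Prkca promoter, chr11:108343929-108344138, minus strand: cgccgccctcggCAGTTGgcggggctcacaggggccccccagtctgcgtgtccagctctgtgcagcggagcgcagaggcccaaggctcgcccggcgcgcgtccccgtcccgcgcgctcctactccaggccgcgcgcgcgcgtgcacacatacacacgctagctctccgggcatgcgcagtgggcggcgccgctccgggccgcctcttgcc
Prkca intronic peak, middle 300 bases, chr11:108298124-108298423, plus strand: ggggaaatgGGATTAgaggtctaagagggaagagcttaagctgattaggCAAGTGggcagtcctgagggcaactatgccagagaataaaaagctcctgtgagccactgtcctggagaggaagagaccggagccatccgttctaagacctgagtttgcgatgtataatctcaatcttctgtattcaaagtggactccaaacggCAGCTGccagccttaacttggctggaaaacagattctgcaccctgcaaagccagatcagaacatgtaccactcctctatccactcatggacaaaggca

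All 10 genes matched the RefSeq promoter table, with 15 windows of 300 bases (250 before to 50 after each start). The Prkca window had 75.3% G and C and 42 CG dinucleotides, Isl1 had 37 and the windows of Gng13 6 and 34. The windows of Grm6, Trpm1, Gpr179, Cabp5 and Vsx1 that lay inside promoter peaks held 0 to 6, where the median over all 32851 RefSeq windows was 7. On both strands and with overlaps allowed, TAATCC was found in 3 of the 15 windows, those of Cabp5, Isl1 and the first Trpm1 start, against 7.06% of all RefSeq windows. The letters TAATTA (a paired-type homeodomain core) were in 1 window, of Pcp2, against 5.29%, and CANNTG was in 14 of 15, against 72.3%. In the middle 300 bases of the 53 Prkca peaks TAATCC occurred in 15.1%, beside 12.9% of all intronic peaks, TAATTA in 7.55% beside 5.75%, and CANNTG in 79.2% beside 84.1%. A match describes these letters in these windows and was not tested further.

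From P4 to P28, 22 of the 81 peaks rose and 0 fell at an adjusted p under 0.01, where 18.9% of all peaks rose and 4.21% fell. At an unadjusted p under 0.05, 46 member peaks were higher and 2 lower in limma, beside 39.0% and 12.7% of all peaks. Voom on the recovered reads called 38 higher and 1 lower, beside 30.2% and 11.3% of all peaks. Of the 22 peaks, 18 were in Prkca, 2 in Gpr179, 1 at Grm6 and 1 at Gng13. Without Prkca, 4 of 28 peaks rose. The median log2 change over the 81 peaks was 1.28, and 0.86 without Prkca, beside 0.68 over all peaks. Every P28 library lay above both P4 libraries in 61 of the 81 peaks, beside 50.6% of all peaks. With the batch 2 library left out the count was 17. It was 8 and 10 without P4 replicates 1 and 2, 14 without P28 replicate 2, and 39 and 40 without P10 replicates 1 and 2. Leaving out a P4 or P10 library leaves that age with 1 library, so here and in every such value given for a peak or gene, the lone library is assumed to vary like those of the other ages, which supply the spread. The share of all peaks called in either direction moved the same way, from 23.1% with all libraries to 13.7% without the batch 2 library, 7.18% and 7.66% without the P4 libraries, 10.6% without P28 replicate 2, and 39.0% and 39.2% without the P10 libraries. After rescaling to reads in peaks, 12 member peaks rose and 2 fell, beside 7.17% and 15% of all peaks, and the 2 were intronic peaks of Trpm1.

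Prkca, which encodes protein kinase C alpha, held the strongest single peak of the bipolar genes and the most peaks that rose. The strongest peak was intronic, at chr11:108297878-108298669, 45259 bases from the start site. It had 2.29 and 6.78 RPKM at P4, 22.8 and 30.9 at P10, and 39.4, 37.0 and 44.5 at P28. The ages did not overlap, and the P28 mean of 40.3 ± 3.81 RPKM (SD, n = 3) was above that of 99.8% of the 45481 intronic peaks. The log2 change of RPKM + 1 from P4 to P28 was 3.02 ± 0.36 (SE; limma adjusted p = 3.08e-04), and 1.67 after rescaling to reads in peaks (adjusted p = 0.0057).

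The Prkca start site itself lay in a promoter peak that the annotation assigned to the neighbouring gene Apoh, so it was not among the 81. This peak, chr11:108342676-108344439, had 1.80 and 1.01 RPKM at P4, 7.16 and 9.83 at P10, and 18.4, 22.1 and 24.97 at P28. The 3 ages were fully separated, with a log2 change to P28 of 3.25 ± 0.31 (SE; limma adjusted p = 1.46e-04). The promoter sequence printed above lies inside it.

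The largest fitted changes in Prkca were at intronic peaks near the start site. The first, 1.58 kb inside the gene (chr11:108341990-108342343), had no reads at P4 and 0 and 4.45 RPKM at P10, against 17.8, 17.4 and 22.4 at P28. A further peak 19645 bases inside (chr11:108323342-108324283) had no reads at P4, 5.75 and 5.02 RPKM at P10, and 11.4, 14.55 and 18.15 at P28. Against 3 reads in each P4 library, the P28 means were at least 4.31-fold and at least 8.79-fold higher. A peak with no reads at P4 can be in the consensus list only through a later age, so the low P4 level of these peaks follows from how they entered it. Of the 22 member peaks that rose, 4 had no reads at P4, beside 16.8% of all peaks that rose. The call at the first peak was lost without either P4 library (adjusted p = 0.021 and 0.0213).

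**Figure D1:**
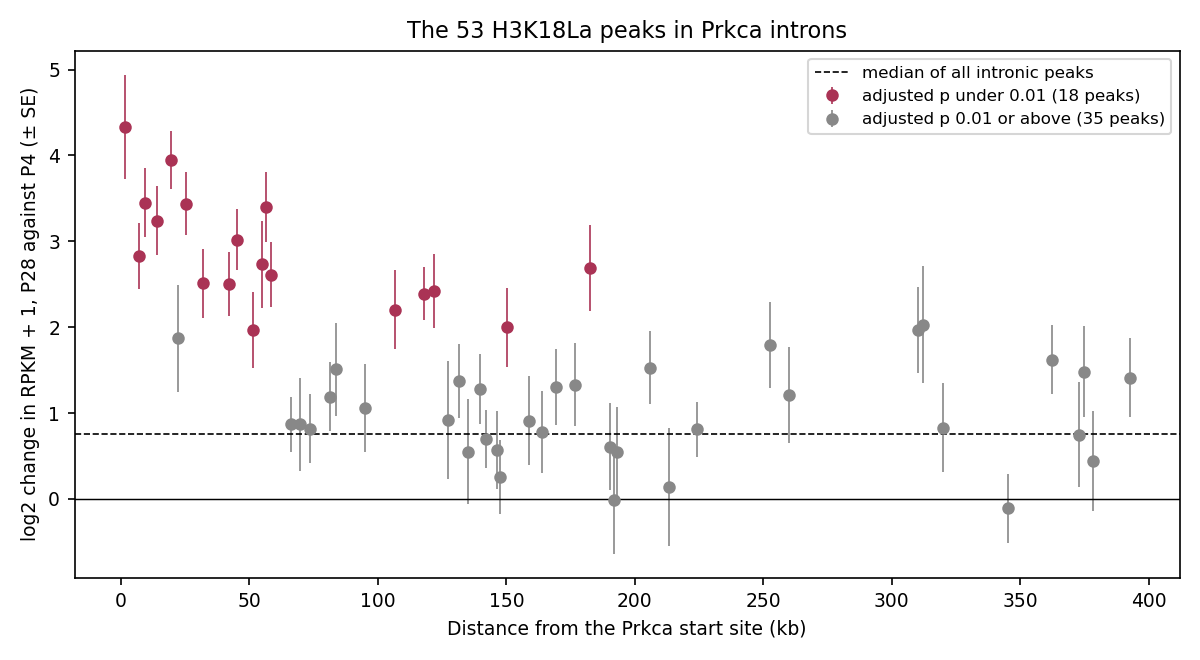
Log2 change of RPKM + 1 from P4 to P28 (± SE of the limma fit) for the 53 intronic Prkca peaks, against distance from the start site in kb, with peaks at an adjusted p under 0.01 in red and the median of all intronic peaks as a dashed line. The 13 called peaks of the first 100 kb all lie within 58403 bases of the start, and no peak beyond 200 kb was called.

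Within 100 kb of the start site 13 of 20 Prkca peaks rose, with a median log2 change of 2.56. Between 100 and 200 kb 5 of 19 rose, with a median of 0.92, and between 200 and 500 kb 0 of 14, with a median of 1.31. Of these 14, 8 were higher at an unadjusted p under 0.05 in limma, beside 40.6% of all intronic peaks. Voom called 7 of them higher, beside 31.1% of all intronic peaks. Intronic peaks of protein-coding genes rose in 24.8%, 16.9% and 12.7% at these distances, and 19.5% of all intronic peaks rose. Over the 53 peaks the correlation of distance and log2 change was r = -0.54 (Spearman rho = -0.59), given as a description because the peaks share their gene and libraries. After rescaling to reads in peaks, 10 of the 20 peaks within 100 kb rose, beside 8.38% of all intronic peaks, and those were the only Prkca peaks called. Leaving out P4 replicate 1 left 6 of the 20 and 7 of all 53, leaving out P4 replicate 2 left 7 and 8, and leaving out P10 replicates 1 and 2 gave 30 and 31 of the 53, beside the shares of all peaks given above for these settings.

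At the promoter peaks of the members the P28 means ran from 1.80 RPKM at Vsx1 to 12.2 at Gng13, beside a median of 4.89 over all promoter peaks. Of the 6 members with a promoter peak under their own symbol, 1 rose from P4 to P28, Gng13, where 32.6% of the promoter peaks of protein-coding genes rose. The 6 leave out the peak over the Prkca start site, labelled Apoh, which also rose (log2 change 3.25, P28 mean 21.84 RPKM). The median log2 change of these 6 peaks was 1.43, beside 1.33 over the 11593 promoter peaks. After rescaling to reads in peaks these were 0.48 and 0.29. With P4 levels at the floor set to 3 reads, the median of the 6 was lower (value under the processing). The 1.33 over all promoter peaks was taken without this floor, though 39.4% of them had 3 or fewer reads in each P4 library. The 2 medians are therefore not compared. In 5 of the 6, every P28 library lay above both P4 libraries, beside 78.9% of all promoter peaks. At 4 of the 6, both P4 libraries had 3 or fewer reads. The count of 1 became 0 without P4 replicate 1 and 2 without either P10 library, where 8.97%, 54.4% and 54.6% of the promoter peaks of protein-coding genes rose.

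Gng13, the gamma subunit of the cascade's G protein, had its nearest promoter peak at chr17:25717471-25718013. Its level was 1.67 and 3.30 RPKM at P4 (5 reads in all), 9.97 and 10.2 at P10, and 10.6, 10.98 and 14.95 at P28. P10 and P28 lay above P4 in every library and the order of the ages was complete. The log2 change was 1.94 ± 0.32 to P28 (SE; limma adjusted p = 0.00141) and 1.71 ± 0.35 to P10 (adjusted p = 0.00549). The call to P28 was lost without P4 replicate 1 (1.60, adjusted p = 0.0167) and after rescaling to reads in peaks (0.70, adjusted p = 0.0894). The call to P10 was lost without either P4 library (adjusted p = 0.032 and 0.0123), without any single P28 library (0.0116 to 0.0167), after rescaling (0.158) and with voom (0.0324). The second Gng13 promoter peak, 605 bases upstream, had 0 and 2.84 RPKM at P4, 0 and 10.5 at P10 and 8.24 to 12.8 at P28, with an adjusted p of 0.0406.

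Gpr179, the orphan receptor that anchors the cascade's regulators, had a promoter peak (chr11:97352261-97352643) with 4.75 and 0 RPKM at P4, 4.71 and 6.17 at P10, and 4.79, 8.51 and 10.8 at P28. The P28 libraries lay above P4, the lowest by little, and the log2 change of 1.85 ± 0.64 (SE) had an adjusted p of 0.0416. It was 3.12 without P4 replicate 1 (adjusted p = 0.0104) and 0.59 without P4 replicate 2 (0.379), and voom called it (1.97, adjusted p = 0.00833). A pair of other Gpr179 peaks rose. The peak 3278 bases upstream (chr11:97355355-97356339) had no reads at P4, 5.50 and 6.40 RPKM at P10, and 2.66, 5.49 and 4.91 at P28.

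That upstream peak was thus present from P10, with means at least 3.72-fold higher at P10 and at least 2.72-fold higher at P28 than 3 reads in each P4 library (adjusted p = 0.00209 and 0.00182). With no reads at P4, it too was in the consensus list only through later ages. Its call to P28 was lost without either P4 library (adjusted p = 0.0178 in both), without P28 replicate 2 or 3 (0.0182 and 0.0149) and with the replicate block (0.0114), and its call to P10 without either P4 library (0.0153 and 0.0157). The peak in the 3′ untranslated region (chr11:97331110-97332547) had 0.63 and 0.41 RPKM at P4, 2.51 and 4.93 at P10, and 3.28, 8.68 and 9.85 at P28 (log2 change 2.33 ± 0.48, SE; adjusted p = 0.00439). This call was lost without P4 replicate 1 or 2 (adjusted p = 0.0422 and 0.0539), without P28 replicate 2 or 3 (0.0297 in both), after rescaling to reads in peaks (0.0208) and with the replicate block (0.0153). The remaining peaks of the gene, in an intron and an exon, had log2 changes of 0.68 and 0.66 and were not called.

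Trpm1, the cation channel that the cascade closes, had 1.45 and 0 RPKM at P4, 0 and 4.21 at P10, and 5.04, 3.87 and 5.71 at P28 in its promoter peak (chr7:64153438-64154374). P28 lay above P4, P10 spanned both, and the log2 change of 1.89 ± 0.69 (SE) had an adjusted p of 0.0489. It was 2.54 without P4 replicate 1 (adjusted p = 0.0943) and 1.25 without P4 replicate 2 (0.347). The same peak was called with voom (2.61, adjusted p = 4.99e-04) and without P10 replicate 1 or 2 (0.00275 and 0.00319). A second Trpm1 promoter peak, inside the gene at the start of a retained-intron transcript (chr7:64184339-64186208), had 0.49 and 1.60 RPKM at P4, 0 in both P10 libraries, and 1.82, 1.81 and 1.94 at P28. P28 lay above P4 and P10 below it, and the log2 change to P28 of 0.54 ± 0.37 (SE) had an adjusted p of 0.255. Of the 11 Trpm1 peaks limma called 0 between P4 and P28, where 18.9% of all peaks rose and 4.21% fell. At an unadjusted p under 0.05, 5 were higher and 2 lower, beside 39.0% and 12.7% of all peaks. Voom called 3 higher and 1 lower, beside 30.2% and 11.3% of all peaks. Log2 changes ran from -1.04 to 2.13, the highest at a distal peak 13297 bases upstream with 4.61 to 7.0 RPKM at P28 (adjusted p = 0.0279), which was called with voom (2.26e-04) and without P10 replicate 1 or 2 (0.00107 and 0.00126).

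A pair of intronic Trpm1 peaks deep in the gene were called between P4 and P10, in opposite directions. One (chr7:64206275-64206874) had 0 reads at P4 and 1 read in each P10 library, and its log2 change of 1.61 had an adjusted p of 0.00783. The other (chr7:64250326-64250790) had 2 and 1 reads at P4 and 0 at P10, with -1.38 (adjusted p = 0.00979). Both calls thus rested on 2 and 3 reads, and both were lost with voom (adjusted p = 0.0161 and 0.562) and without any single P4 or P28 library (0.0119 to 0.0626).

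Grm6, which encodes mGluR6 itself, had a higher level upstream of its promoter than at it at P28. At P4 and P10 the 2 peaks rested on too few reads to order them (7 and 1 at the promoter, 1 and 4 upstream). The promoter peak (chr11:50850368-50851839) had 1.54 and 0.81 RPKM at P4, 1.23 and 0 at P10, and 1.96, 2.46 and 2.93 at P28. P28 was above P4 in every library, but the log2 change of 0.68 ± 0.48 (SE; adjusted p = 0.275) was not called. The median was 1.33 over all promoter peaks and 0.68 over all peaks. After rescaling to reads in peaks the change was -0.32, beside a median of 0.29 over promoter peaks.

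The distal Grm6 peak 1960 bases upstream (chr11:50848059-50848725) had 0 and 0.89 RPKM at P4 (1 read in all), 2.71 and 3.55 at P10, and 7.47, 9.03 and 9.84 at P28. The 3 ages did not overlap, with 4 reads in all at P10, and the log2 change to P28 of 2.82 ± 0.40 (SE) was called (adjusted p = 6.78e-04), also after rescaling (2.18, adjusted p = 0.00777). With 0 and 1 reads at P4 and 1 and 3 at P10, this peak may be in the consensus list only through P28. Its low level at the earlier ages may then follow from how it entered. The intronic and exonic peaks of Grm6 had log2 changes of 0.68 and -0.17 and overlapped between P4 and P28.

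Cabp5, a calcium-binding protein of bipolar cells, had a promoter peak (chr7:13397582-13398679) with 0.41 and 0.54 RPKM at P4, 0 in both P10 libraries, and 0.96, 2.91 and 2.36 at P28. The groups at P4 and P28 did not overlap, and the log2 change of 1.00 ± 0.37 (SE) had an adjusted p of 0.0521. After rescaling to reads in peaks it was 0.26 (adjusted p = 0.534), beside a median of 0.29 over promoter peaks. The intronic peak and the peak in the 3′ untranslated region had log2 changes of -0.34 and 0.25. Pcp2, a modulator of the G protein alpha subunit in ON bipolar cells, had no peak within its gene or 1 kb of it under any symbol.

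**Figure D2:**
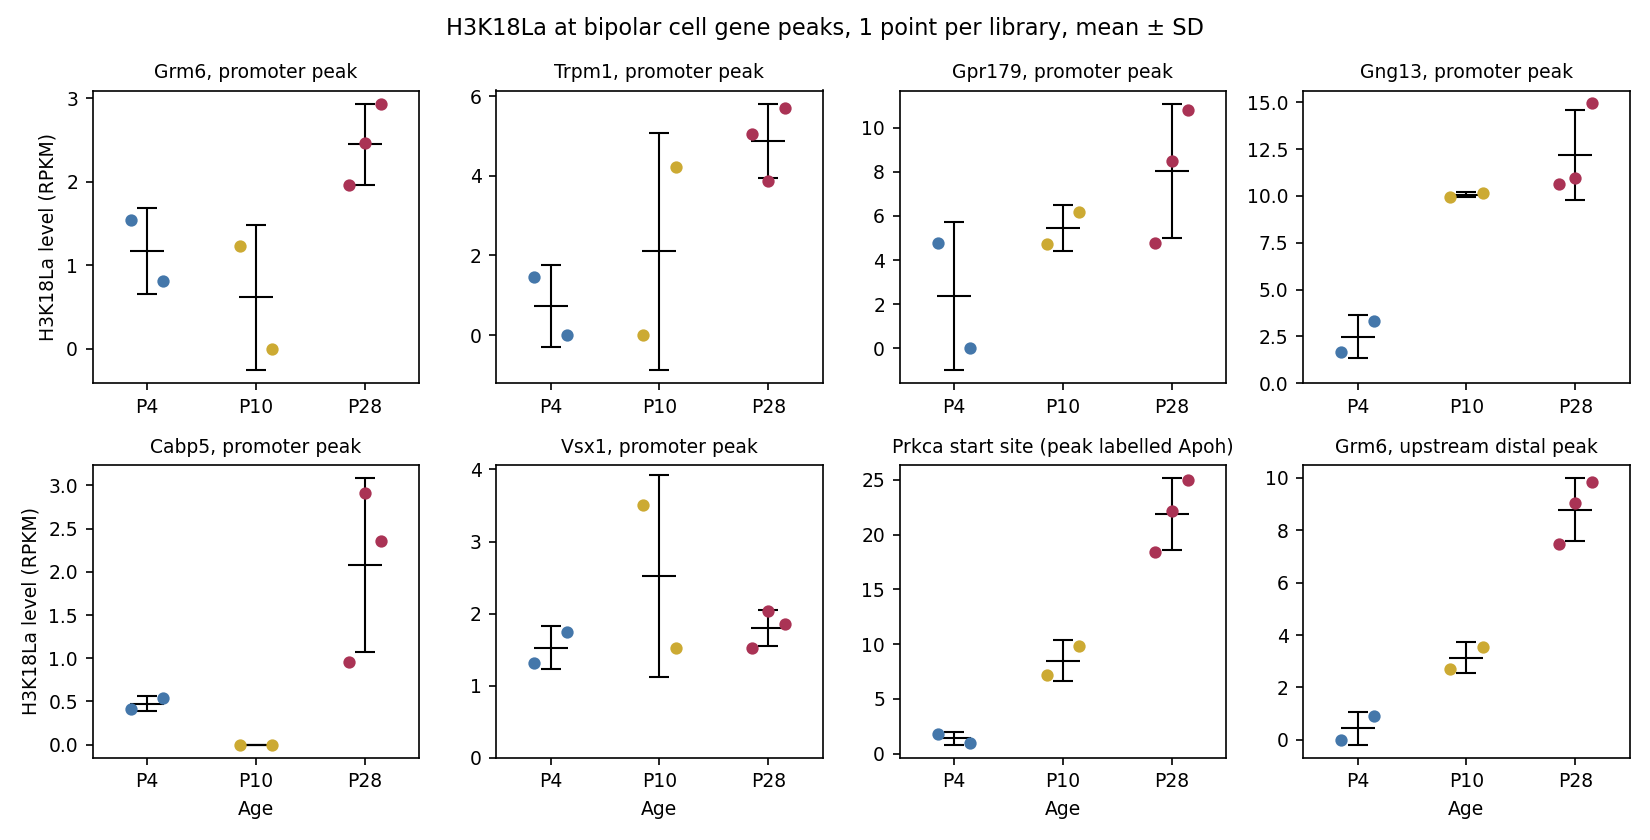
H3K18La level in RPKM at P4, P10 and P28 for the promoter peaks of 6 bipolar cell genes, the peak over the Prkca start site and the upstream Grm6 peak (points are libraries, bars are means ± SD, and vertical scales differ). The Prkca start-site peak reaches 18.4 to 24.97 RPKM at P28, and the Vsx1 promoter stays between 1.32 and 3.51 RPKM at all ages.

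The peaks of the transcription factors among the members had P28 means of 1.80 to 4.14 RPKM, beside a median of 2.55 over all peaks. Vsx1, a paired-type homeodomain factor of cone bipolar cells, had 1.32 and 1.74 RPKM at P4, 3.51 and 1.53 at P10, and 1.53, 2.03 and 1.85 at P28 in its promoter peak (chr2:150688411-150689439). All ages overlapped and the log2 change to P28 was 0.15 ± 0.44 (SE; adjusted p = 0.804), and -0.90 after rescaling to reads in peaks (adjusted p = 0.142), beside the promoter medians of 1.33 and 0.29.

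Isl1, a LIM homeodomain factor of ON bipolar cells that ganglion and some amacrine cells also use, had no promoter peak. Its distal peak (chr13:116293328-116294227) had 2.02 and 0 RPKM at P4, 0 in both P10 libraries, and 2.62, 2.87 and 1.92 at P28 (log2 change 0.99, adjusted p = 0.125). The change was 1.78 without P4 replicate 1 and 0.19 without P4 replicate 2. Bhlhe23, a bHLH factor of rod bipolar cells, had a distal peak 17378 bases upstream with 3.57 and 1.88 RPKM at P4, 0 and 4.96 at P10, and 4.13, 3.96 and 4.34 at P28 (log2 change 0.50, adjusted p = 0.549, and 0.17 to 0.84 when 1 library was left out). Neither peak was called in any comparison of ages.

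From P4 to P10, 12 of the 81 peaks rose and 1 fell, where 11.4% of all peaks rose and 7.34% fell. The 12 were 9 of Prkca and 1 each of Trpm1, Gpr179 and Gng13. The count of 13 calls became 1 without P4 replicate 1, 3 without P4 replicate 2, and 4 or 5 without any single P28 library. The share of all peaks called, 18.7% with all libraries, was 5.06%, 5.05% and 8.03% to 12.0% in these settings. From P10 to P28, limma called 0 member peaks and 0.00185% of all peaks, with 35 member peaks at an unadjusted p under 0.05 (32.5% of all peaks) and 2 by voom on the recovered reads (8.26% of all peaks). Without P10 replicate 2 the count was 20, all higher at P28, where 13.0% of all peaks were called higher and 2.27% lower. Across the 3 ages 20 of the 81 peaks changed by the moderated F test, beside 24.6% of all peaks. That count was 3 without either P4 library, 9 without P28 replicate 2 or 3, and 36 and 45 without P10 replicates 1 and 2. Of all peaks, 3.30% and 2.75% changed without the P4 libraries, 9.23% and 10.1% without P28 replicates 2 and 3, and 39.8% and 47.3% without the P10 libraries.

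Over all peaks of a gene together, Prkca had 1.10 and 1.35 RPKM at P4, 3.04 and 5.25 at P10, and 5.85, 7.39 and 8.54 at P28, a 5.92-fold higher mean at P28 than at P4 where all peaks together had a 2.95-fold higher mean. Gng13 had 1.78 ± 1.71 (SD, n = 2) at P4 and 11.4 ± 2.08 (SD, n = 3) at P28, and Gpr179 had 1.01 ± 0.12 and 4.89 ± 1.65. Means at P28 were 3.03-fold those at P4 for Grm6, 2.63-fold for Trpm1, 1.78-fold for Cabp5 and 1.18-fold for Vsx1. With 3 against 2 libraries the exact two-sided permutation test cannot go below p = 0.2. Prkca, Gng13, Gpr179, Grm6, Trpm1 and Bhlhe23 reached this value, as did all peaks together.

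At P28 the order per length was Gng13, Prkca, Gpr179, Bhlhe23 (4.14), Grm6 (3.80), Trpm1 (3.39), Isl1 (2.47), Cabp5 (1.88) and Vsx1 (1.80 RPKM). Libraries of neighbours in this order did not overlap between Gng13 and Prkca or between Trpm1 and Isl1, and overlapped between all other neighbours. Compared within the same library, Prkca also lay above Gpr179 and Grm6 above Trpm1 in every P28 library. The other overlapping neighbours changed order between libraries. Relative to the level over all peaks in the same library, Prkca had 0.69 ± 0.06 (SD, n = 2) at P4, 0.89 ± 0.11 (SD, n = 2) at P10 and 1.39 ± 0.06 (SD, n = 3) at P28. On that relative scale Vsx1 had 0.87 ± 0.12 at P4, 0.61 ± 0.46 at P10 and 0.35 ± 0.04 at P28. Grm6 had 0.71 ± 0.16, 0.27 ± 0.05 and 0.73 ± 0.05, and Trpm1 0.73 ± 0.10, 0.46 ± 0.04 and 0.66 ± 0.08. In both of these genes P4 and P28 overlapped, and both P10 libraries lay below every library of the other ages. All 4 Grm6 peaks, 8 of the 11 Trpm1 peaks and the Vsx1 peak had 3 or fewer reads in each P10 library. In RPKM the means at P4 and P10 were 1.26 and 1.19 for Grm6 and 1.29 and 2.14 for Trpm1. All peaks together, the divisor of this scale, had a 2.6-fold higher mean at P10 than at P4.

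**Figure D3:**
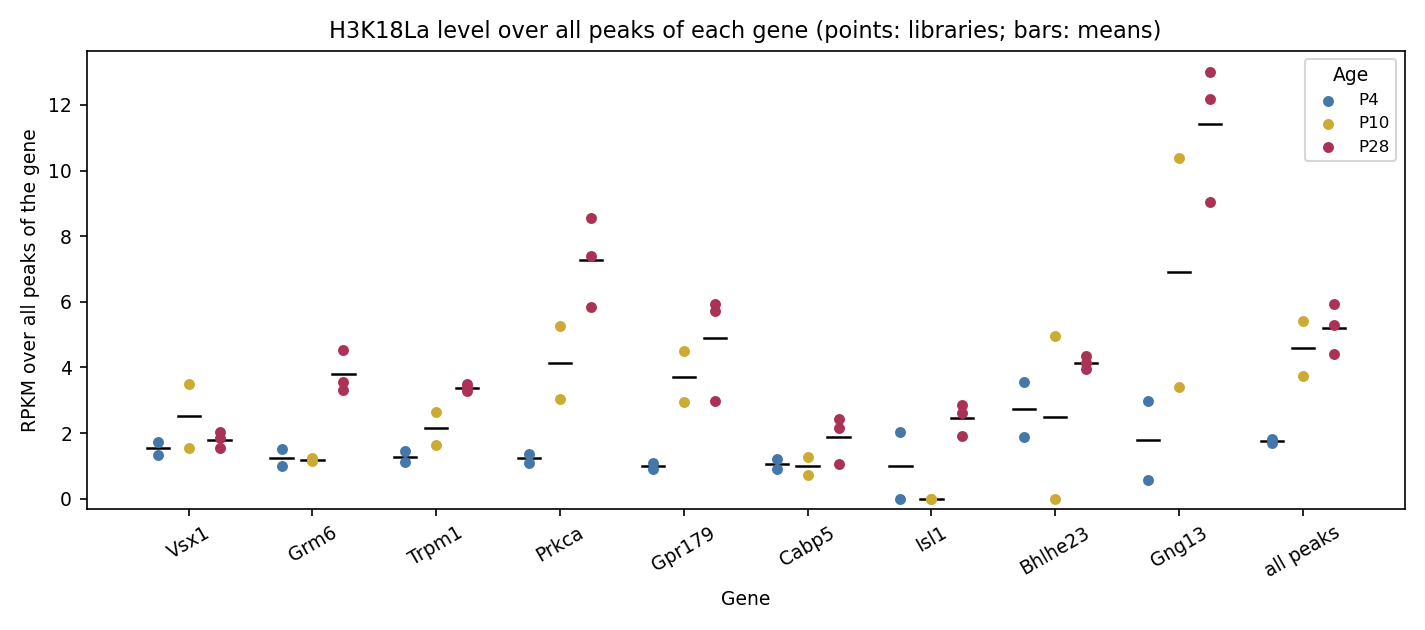
H3K18La level in RPKM over all peaks of each bipolar cell gene and over all peaks of the series at P4, P10 and P28 (points are libraries, bars are means). Prkca at P28 (5.85 to 8.54) lies above P4 (1.10 and 1.35), whereas Vsx1 overlaps between the ages.

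Of the members' partners in the mGluR6 cascade, 5 of the 7 with a promoter peak rose at it (median log2 change 2.14), beside 1 of the 6 members and 32.6% of all promoter peaks (median 1.33). The 6 leave out the peak over the Prkca start site, labelled Apoh, which rose. The difference between these lists was not tested. Gnb5, the beta subunit that pairs with the cascade's RGS proteins, had 0.35 and 0.45 RPKM at P4, 16.5 and 14.98 at P10, and 14.95, 21.1 and 21.3 at P28 (log2 change 3.83 ± 0.29, SE; limma adjusted p = 1.13e-04). Lrit3, needed to place the cascade at the synapse, had 0.33 and 0.86 RPKM at P4, 11.8 and 9.13 at P10, and 16.9, 16.7 and 16.6 at P28 (3.49 ± 0.30, adjusted p = 1.25e-04). Nyx, which encodes nyctalopin of the same synapse, had 1.02 and 0.67 RPKM at P4, 2.02 and 6.17 at P10, and 7.91, 10.6 and 11.2 at P28 (2.56 ± 0.42, adjusted p = 0.00141).

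All 7 partners with a promoter peak were above P4 in every P28 library, beside 78.9% of all promoter peaks. Gnb5, Lrit3 and Nyx were also called after rescaling to reads in peaks, the only ones of the list that were, beside 7% of all promoter peaks. The Nyx call was lost without either P4 library (adjusted p = 0.0196 and 0.0263) and without P28 replicate 2 or 3 (0.0111 and 0.0113). The other called partners, Gnb3 and Gnao1, had log2 changes of 2.14 and 1.48, and 0.74 and 0.25 after rescaling. Gnb3 is also used by cone photoreceptors, and Gnb5 and Gnao1 by many neurons.

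Among 8 further transcription factors of bipolar cells or their precursors, 2 promoter peaks rose, beside 32.6% of all promoter peaks (median log2 change 0.39, beside 1.33). After rescaling to reads in peaks 1 rose, Otx2, and 1 fell, Irx5, where 7% of promoter peaks rose and 3.51% fell (median -0.51, beside 0.29). Otx2, which photoreceptors use too, had 1.81 and 2.38 RPKM at P4, 7.19 and 25.1 at P10, and 20.9, 25.7 and 37.8 at P28 (3.20 ± 0.46, SE; adjusted p = 7.22e-04), and the call was lost without either P4 library (0.0252 and 0.0205). Prdm8 had 6.53 and 8.58 RPKM at P4 and 18.3, 19.6 and 24.04 at P28 (1.34 ± 0.33, adjusted p = 0.00947). That call was lost without any single P4 or P28 library (adjusted p = 0.0257 to 0.0847), and the change was -0.09 after rescaling to reads in peaks. Irx5 (-1.01) and Bhlhe22 (-0.69) had negative changes that were not called, and after rescaling they had -2.15 (adjusted p = 0.0086, called) and -1.92 (adjusted p = 0.0142).

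Of 7 bipolar subtype and signalling markers with a promoter peak, 2 rose, beside 32.6% of all promoter peaks (median log2 change 0.13, beside 1.33). After rescaling 0 rose and 2 fell, Neto1 and Vstm2b, where 7% of promoter peaks rose and 3.51% fell (median -0.89, beside 0.29). Scgn, which encodes a calcium-binding protein, had 0.56 and 1.47 RPKM at P4, 2.22 and 1.94 at P10, and 7.11, 6.13 and 7.87 at P28 (log2 change 2.03 ± 0.38, SE; adjusted p = 0.00259). Kcng4, a potassium channel subunit gene, had 2.18 and 3.22 RPKM at P4, 16.2 and 13.7 at P10, and 10.4, 12.01 and 11.8 at P28 (1.76 ± 0.28, adjusted p = 0.00126). In both genes every P28 library lay above P4. The Scgn call was lost without P4 replicate 1 (adjusted p = 0.0201) or any P28 library (0.0141 to 0.02), and the Kcng4 call without P4 replicate 1 (0.0133) or P28 replicate 2 (0.0108). Grik1, the kainate receptor subunit of OFF bipolar cells, had a log2 change of -0.04.

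**Figure D4:**
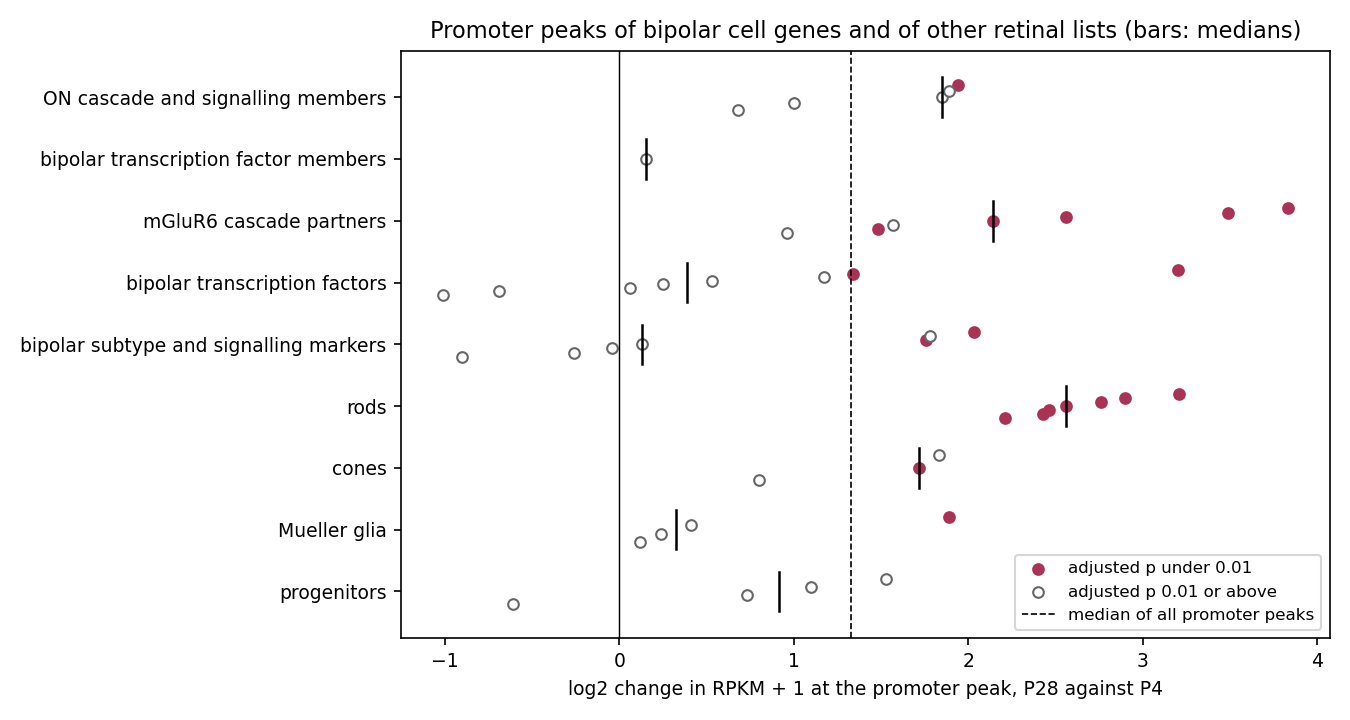
Log2 change of RPKM + 1 from P4 to P28 at 1 promoter peak per gene for the members, other bipolar lists and marker lists of other retinal cells (filled points have an adjusted p under 0.01, bars are list medians, and the dashed line is the median of all promoter peaks). The rod markers lie between 2.21 and 3.21 and the cascade partners between 0.96 and 3.83, while the members lie between 0.15 and 1.94. The peak over the Prkca start site, labelled Apoh, is not shown (log2 change 3.25).

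Markers of other retinal cells moved over the same interval. The promoter peaks of 7 rod markers all rose, where 32.6% of all promoter peaks rose, with summed levels of 15.1 to 19.6 RPKM at P4, 130.4 to 130.8 at P10 and 111.9 to 164.0 at P28, and 5 of the 7 rose after rescaling, where 7% of all promoter peaks rose and 3.51% fell. Of 3 cone markers 1 rose (2.31 to 3.71, then 12.4 to 15.1 RPKM at P28), of 4 Mueller glia markers 1 (6.26 to 8.37, then 16.4 to 21.55) and of 2 amacrine markers 1 (3.26 to 4.28, then 12.45 to 18.04). The Mueller glia sum rests on Glul, with means of 2.72 and 12.61 RPKM at P4 and P28. Rlbp1, Slc1a3 and Sox9 overlapped between these ages (log2 changes 0.41, 0.24 and 0.12, not called). The amacrine sum rests on Slc6a9, with means of 1.32 and 14.14 RPKM at P4 and P28, while Gad1 had 2.45 and 1.36 (log2 change -0.54, not called). The horizontal cell marker Onecut1 (4.39 to 5.12, then 1.30 to 2.18) and 2 ganglion cell markers (5.88 to 7.82, then 1.47 to 4.10) were not called, nor were 4 progenitor markers (4.88 to 5.23, then 10.4 to 11.4), of which Sox2 was lower at P28 in every library (means of 1.68 and 0.78, log2 change -0.61) and the other 3 higher. After rescaling to reads in peaks, the horizontal cell marker (log2 change -2.40) and both ganglion cell markers (median -2.10) fell, while the cone call (Arr3, adjusted p = 0.223) and the Mueller glia call (Glul, 0.201) were lost. No marker with a promoter peak was at 0 in all libraries of P4 or P28, and 5 genes of other organs had no promoter peak. The part of these cells in the levels of the bipolar genes was not tested.

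The 5 protein-coding genes whose promoter peaks followed the mean profile of the 6 member promoters most closely were Gna12, Flywch2, Gabarapl1, AW549877 and Atg10. Pearson r over the 7 libraries was 0.992 to 0.997, the highest of 10258 promoter peaks, and is a description, since all points share the libraries. Their log2 changes from P4 to P28 were 1.65 to 2.14.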

How the data were processed

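H3K18La CUT&Tag libraries of C57Bl/6J retina at P4, P10 and P28 were analysed from 1 table of consensus peaks. RPKM values had been computed by the authors per peak and library with normalised library sizes from edgeR (version 3.40.2 in the submitters' notes) over windows of 10000 bases, after MACS peak calling on GRCm38 in separate replicates and annotation with ChIPseeker 1.34.1. The authors' differential columns, which hold fold changes and p-values between ages, and their peak list were not used. The labels name pA-MNase as the enzyme and the methods pA-Tn5. RPKM times peak width came in whole multiples of 1 fixed amount per library, the value of 1 read, which gave the normalised library size and the reads of every peak (100% whole within 0.01 reads), and a count model was not used for RPKM. Ages were compared with limma 3.58.1 (R 4.3.3) on log2(RPKM + 1), which understates changes of low peaks, in 1 fit of all 7 libraries over 108253 peaks with no filter, trended variance and Benjamini-Hochberg adjustment, called at an adjusted p under 0.01. A floor of 3 reads in each library was used for folds and covers counting error only. Gene levels were compared by exact permutation tests (scipy 1.17.1). The steps were tested on simulated data. For the limma fit, changes were planted only in peaks with enough expected reads at P4, so peaks with few P4 reads were not covered. Named were every member by its promoter peak, other member peaks that were called or strongest, the 3 called genes of each context list with the largest change, and the 5 genes most like the members. Members and lists were chosen with earlier results of these data known. Some genes of the context lists are not reported here. Alternatives were other pseudocounts, filters, scalings, voom, a replicate block, leaving out each library and a threshold of 0.05. Sequences came from RefSeq (GRCm38.p6) and overlaps from GENCODE.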

Additional observations from a re-analysis of the deposited data

How the results depend on the processing

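At P4, 53 of the 81 member peaks had 3 or fewer reads in each library. The 22 member peaks called from P4 to P28 became 14 after rescaling to reads in peaks, 39 with voom and 42 at an adjusted p under 0.05, and 8 to 40 when 1 library was left out. The 13 from P4 to P10 became 8 with a pseudocount of 0.1, 8 with the replicate block, 7 rescaled and 26 at 0.05 (1 to 19 leaving out 1 library). The 0 from P10 to P28 became 1 with median centring, 2 with voom and 9 at 0.05 (0 to 20). The 20 across ages became 10 with a pseudocount of 0.1, 11 rescaled, 40 with voom and 40 at 0.05 (3 to 45). The 1 promoter peak called became 0 rescaled, 3 with voom and 3 at 0.05 (0 to 2). The 18 Prkca peaks became 10 rescaled, 29 with voom and 32 at 0.05 (7 to 31), and 19 with the start-site peak labelled Apoh, an alternative added after seeing the data. The 13 Prkca peaks within 100 kb became 10 to 16 under the other settings and 6 to 16 leaving out 1 library. The median log2 change of the 6 promoter peaks, 1.43, was 0.90 with P4 levels at the floor set to 3 reads. The cause of these shifts was not tested. The share of all peaks called from P4 to P28 was 23.1%, and 22.2% rescaled, 41.5% with voom and 42.0% at 0.05. From P4 to P10 it was 18.7%, 13.8% with a pseudocount of 0.1, 15.5% with the block, 20.2% rescaled and 35.0% at 0.05. From P10 to P28 it was 0.00185%, 2.17% with median centring, 8.26% with voom and 13.4% at 0.05. Across ages it was 24.6%, 14.0% with a pseudocount of 0.1, 23.1% rescaled, 43.3% with voom and 51.9% at 0.05. Of the promoter peaks of protein-coding genes, 32.6% rose from P4 to P28, and 7% rescaled, 52.3% with voom and 54.6% at 0.05. A pseudocount of 0.1, a filter of 20 reads, median centring and the replicate block left the 22 at 17, 23, 22 and 18. Libraries of equal replicate number shared little deviation from their age mean (correlations 0 to 0.05). With a median of 1 or 2 reads per peak at P4 and P10, this cannot tell whether they were paired. The replicate block gave 18 member peaks from P4 to P28.

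Some uncalled changes turned sign. After rescaling, the Vsx1 promoter was at -0.90 to P28 and -0.49 to P10, Grm6 at -0.32 to P28, Trpm1 at -0.05 to P10, the peak of Cabp5 in the 3′ untranslated region at -0.86 and -0.71, and that of Bhlhe23 at -0.72 to P28. With median centring Vsx1 was at -0.38, Cabp5 at -0.28 and Bhlhe23 at -0.02 to P28. Leaving out 1 library gave changes to P10 of -1.10 to 0.05 for the Grm6 promoter, -0.65 to 1.73 for the Trpm1 promoter, -0.55 to 1.77 for its strongest other peak and -1.86 to 0.72 for Bhlhe23. Of 369 other comparisons of named values with an alternative, 323 kept direction and call.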
